A study of Solanum pimpinellifolium and Solanum chilense with 12 samples.

Results

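In styles of a self-incompatible (SI) and a self-compatible (SC) wild tomato, 146 genes had less RNA 24 h after self-pollination than without pollination in both species. They were chosen from the RPKM values (reads scaled to exon length and to the reads on genes of the library) of 34718 genes. For each species, D was the log2 ratio of the mean RPKM + 0.5 of the 3 pollinated libraries over that of the 3 unpollinated ones. A member had D of -0.8 or lower in both species, all 3 pollinated libraries below all 3 unpollinated ones in both, and a mean of at least 2 RPKM in the unpollinated styles of both. Members made up 0.948% of the 15396 genes that reached this floor. Lower RNA after pollination, and its size, were therefore what chose these genes, and the P over UP values below are a description without a test.

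The 4 groups were SIP and SIUP, from S. chilense LA0130 (SI), and SCP and SCUP, from S. pimpinellifolium LA1585 (SC). P stands for styles with stigmas taken 24 h after selfing and UP for unpollinated ones, with 3 libraries each and 12 in all. Each species was represented by 1 accession, so species and accession cannot be told apart, nor can differences in how well the reads of each fit the reference gene models. A pollinated style also holds pollen tubes, and in bulk RNA fewer cells of a type and less RNA per cell cannot be told apart. The study calls the 3 libraries of a group biological replicates, but no source used here says that they came from separate plants, so p-values measure the spread between these libraries.

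The style carries pollen tubes from the stigma to the ovary through its transmitting tract. In self-incompatible nightshades, S-RNases made by the style stop tubes that carry a matching S haplotype, whereas in self-compatible species self tubes grow on towards the ovary. Pollen tubes take up sugars and other compounds from the style as they grow, and ethylene is among the hormones made by pollinated pistils.

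Libraries held 10174283 to 14499207 reads on genes, worked out from the steps in the RPKM values, so that a single read on 1 kb of exon came to between 0.0690 and 0.0983 RPKM. Solyc10g007270, taken here as the pollen gene LAT52, stood at 591, 1086 and 606 RPKM in SIP, against 488, 159.6 and 161 RPKM in SIUP, and at 1859.7, 2061 and 2213 RPKM in SCP, against 1275, 3274 and 1797 RPKM in SCUP. It was higher in every SIP library than in every SIUP library, the SCP and SCUP ranges overlapped, and no library was at 0. The sources used here pair no style marker with a gene ID, so the tissue was not checked against one.

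The members took 0.492% ± 0.0431 of the reads on genes in SIP and 1.05% ± 0.109 in SIUP (SD, n = 3 each). In SC they took 0.374% ± 0.109 in SCP and 0.884% ± 0.0835 in SCUP (SD, n = 3 each). SCP1 had the lowest share of all 12 libraries, 0.249%, against 0.425% in SCP2 and 0.447% in SCP3. It was the lowest SCP library for 128 of the 146 members. Among the unpollinated SI libraries, SIUP1 had the lowest share, 0.927%, against 1.14% in SIUP2 and 1.08% in SIUP3, and was the lowest of its group for 107 members. The same library had the highest Solyc10g007270 value of the SIUP group, and SCP1 the lowest of the SCP group. The part of pollen RNA in these differences was not tested. For how many of all genes SCP1 or SIUP1 was the lowest of its group was not counted, so this is not shown to be particular to the members. A low SCP1 also lowers D in SC, which the rule used.

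**Figure D1:**
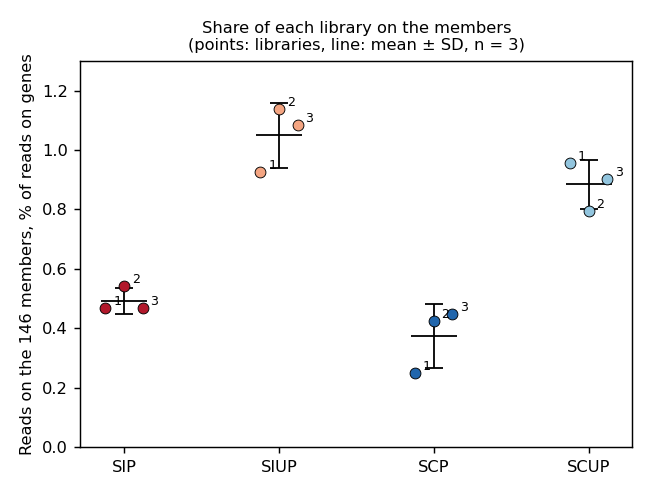
Percent of the reads on genes that fell on the 146 members, by group. Points are libraries 1 to 3, and the line with its bar is the mean ± SD (n = 3). Every SIP library lies below every SIUP library and every SCP library below every SCUP library, and SCP1 is the lowest at 0.249%.

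Median D over the members was -0.98 in SI, where D ran down to -2.94, and -1.09 in SC, where it ran down to -2.11. Over all genes tested it was -0.11 in SI and -0.13 in SC. The median ratio of P over UP means was 0.490 in SI and 0.422 in SC. D was -1 or lower for 64 members in SI and for 98 in SC, of which 47 reached it in both. With SCP1 left out, median D in SC was -0.91, 47 members lay above -0.8 and the highest of them was at -0.39. The rule without SCP1 chose 103 genes, 99 of them members, and without SIUP1 it chose 289, of which 136 were members.

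The condition that the groups do not overlap was met on its own by 22.5% of floor genes in SI and 24.8% in SC. All conditions together were met by 320 genes in SI (2.08%) and 1109 in SC (7.20%), so the members were 45.6% of the SI list and 13.2% of the SC list. In a limma fit per species with Benjamini-Hochberg adjustment, 55 members passed at an adjusted p under 0.05 as lower in SIP, where 1.15% of 18334 genes did. In SC 46 members passed as lower in SCP, where 2.23% of 18913 genes did. Both tests passed for 22 members and neither for 67. With 1 library left out the count of members ranged from 1 (without SIUP3) to 104 (without SIUP1) in SI. Over all genes tested, 2 of 18100 and 1083 of 18141 passed there. The member count was 2 without SIP1, 7 without SIUP2, 11 without SIP3 and 23 without SIP2. In the same order 5, 16, 31 and 63 of 18013 to 18105 genes passed. In SC the member count was 2 without SCUP1 or SCUP3, 5 without SCP2, 21 without SCP3, 29 without SCUP2 and 36 without SCP1. In the same order 14, 12, 36, 139, 525 and 283 of 18557 to 18650 genes passed. The rule used these contrasts, and nothing is read from these counts.

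**Figure D2:**
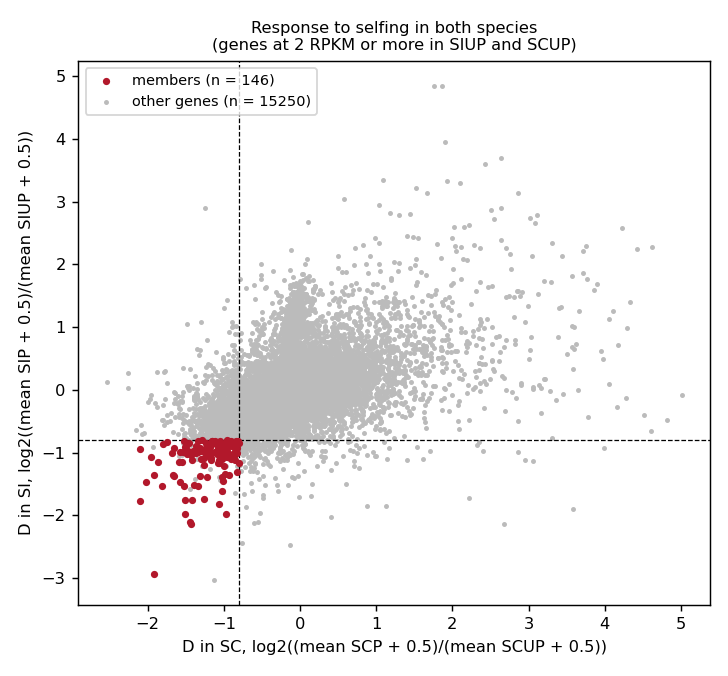
D in SI (vertical axis) against D in SC (horizontal axis), both log2 ratios, for the 15396 genes at 2 RPKM or more in unpollinated styles of both species. The 146 members (red) lie below the dashed lines at -0.8, and grey points in the same corner had overlapping libraries.

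The 12 members with the lowest mean of both D had no annotation in the sources used here and are given by their IDs. Solyc06g006080 had the lowest D of all members in SI. Its values were 10.4, 29.3 and 14.97 RPKM in SIP, against 52.05, 238 and 141 RPKM in SIUP, and 1.31, 19.7 and 23.03 RPKM in SCP, against 58.99, 40.1 and 71.1 RPKM in SCUP. D was -2.94 in SI and -1.91 in SC. No SIP library reached the lowest SIUP library, and within SCP the library SCP1 stood far below the other two.

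Solyc08g062960 had 12.3, 21.6 and 4.63 RPKM in SIP, against 34.7, 62.9 and 38.01 RPKM in SIUP, and 3.87, 34.3 and 26.6 RPKM in SCP, against 53.7, 188 and 40.9 RPKM in SCUP. SCUP2 stood far above SCUP1 and SCUP3 for this gene, and D was -1.78 in SI and -2.10 in SC. Solyc01g110180 had 7.37, 8.09 and 5.23 RPKM in SIP, against 30.04, 29.1 and 37.4 RPKM in SIUP, and 3.804, 2.26 and 6.05 RPKM in SCP, against 17.9, 6.53 and 10.9 RPKM in SCUP. In SI its libraries were close within each group, whereas in SC the highest SCP library, SCP3, came near the lowest SCUP library, and D was -2.14 in SI and -1.44 in SC. Solyc07g055720 was a low gene, with 0.269, 0.241 and 0 RPKM in SIP, against 1.095, 3.57 and 2.52 RPKM in SIUP, and 0.0694, 2.12 and 2.05 RPKM in SCP, against 4.51, 4.01 and 5.596 RPKM in SCUP. It gave the only value of 0 among all members and libraries, in SIP3.

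Solyc07g007150 had 30.6, 52.1 and 23.2 RPKM in SIP, against 89.7, 97.9 and 109 RPKM in SIUP, and 11.5, 25.2 and 25.8 RPKM in SCP, against 86.2, 55.1 and 117 RPKM in SCUP. Its unpollinated log2 difference between species was 0.26 ± 0.37 (SE, limma, adjusted p = 0.581) and did not pass, and D was -1.47 in SI and -2.02 in SC. Solyc07g064160 had 38.8, 75.5 and 50.5 RPKM in SIP, against 171, 235 and 249 RPKM in SIUP, and 0.9601, 25.6 and 35.7 RPKM in SCP, against 46.8, 49.4 and 83.5 RPKM in SCUP. Its SIUP libraries lay above all others, and SCP1 was the lowest of the 12. Solyc06g059840 had 21.6, 28.3 and 25.4 RPKM in SIP, against 51.2, 102 and 69.4 RPKM in SIUP, and 2.96, 6.21 and 5.39 RPKM in SCP, against 13.4, 16.2 and 14.9 RPKM in SCUP. D was nearly equal in both species (-1.54 in SI and -1.52 in SC), although its SCUP libraries were below its SIP libraries.

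Solyc08g075150 had 5.09, 6.92 and 7.91 RPKM in SIP, against 16.2, 18.2 and 19.01 RPKM in SIUP, and 0.746, 0.867 and 0.915 RPKM in SCP, against 6.08, 4.23 and 3.48 RPKM in SCUP. SCP1 did not stand apart from SCP2 and SCP3 for this gene. The other 4 of these 12 genes, Solyc02g078450, Solyc02g077880, Solyc03g083050 and Solyc05g015350, had D of -1.76 to -1.47 in SI and -1.82 to -1.42 in SC.

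**Figure D3:**
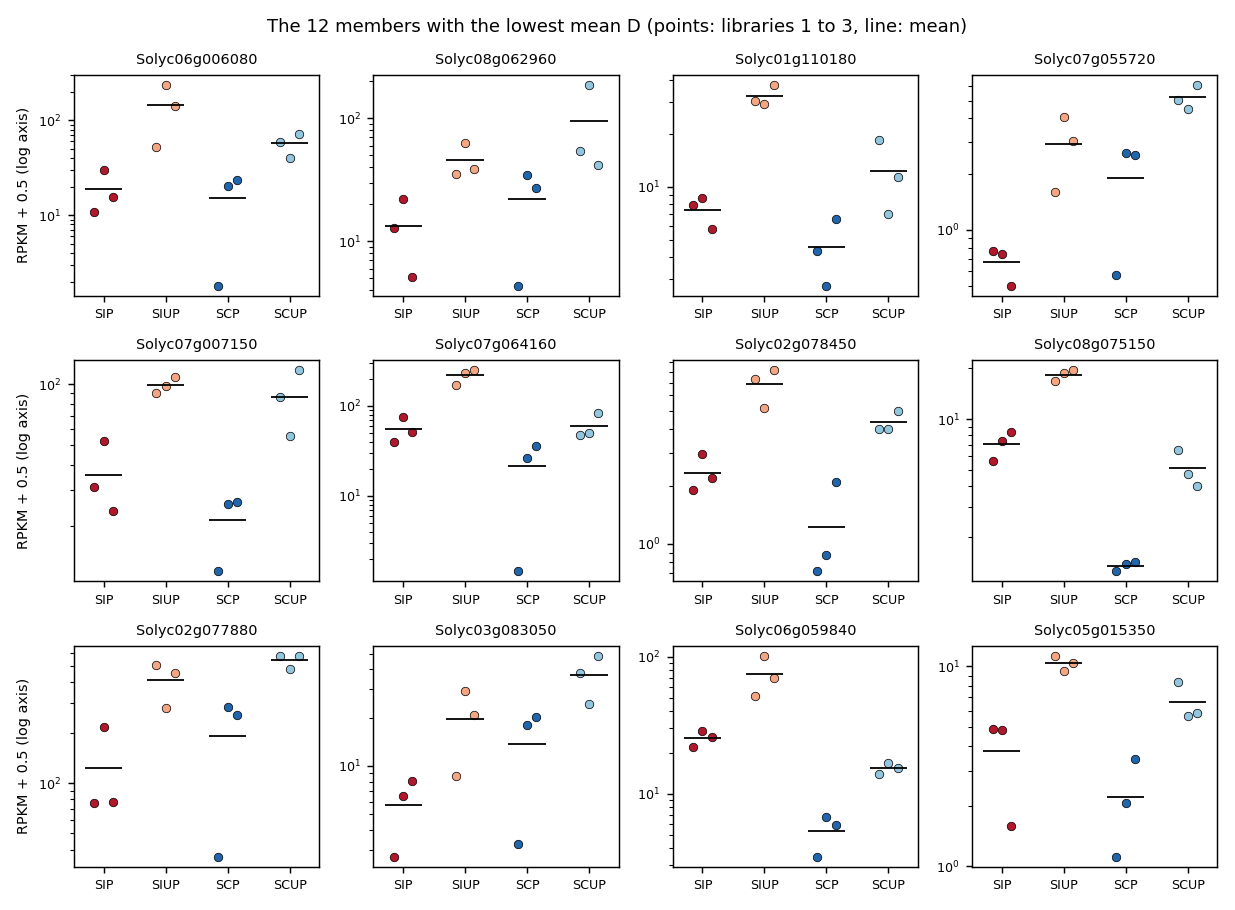
RPKM + 0.5 on a log axis of the 12 members with the lowest mean D, by group. Points are libraries 1 to 3 from left to right and the line is the group mean. P points lie below UP points of the same species in all panels, and SCP1 is the lowest SCP point in 11 of 12.

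Levels of the members spanned a wide range. The mean over the 6 unpollinated libraries ran from 2.32 to 584 RPKM with a median of 18.3, against 21.4 for all floor genes. It was above 100 RPKM for 24 members, between 10 and 100 for 69 and below 10 for 53. The highest was Solyc03g116730, annotated with stearoyl-CoA desaturase activity and the making of very long-chain fatty acids. It had 137, 190.5 and 186 RPKM in SIP, against 351, 367 and 328 RPKM in SIUP, and 251, 343 and 285 RPKM in SCP, against 898, 632 and 930.1 RPKM in SCUP. The groups were far apart in both species.

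Solyc05g012510, annotated with glycogen phosphorylase activity in amyloplasts and chloroplasts, an enzyme type that frees glucose phosphate from stored glucans, was also among the 8 highest. It had 94.8, 105 and 98.3 RPKM in SIP, against 172, 263 and 234 RPKM in SIUP, and 122, 219 and 246 RPKM in SCP, against 428, 409 and 392 RPKM in SCUP. The highest SIP library was at 105 RPKM and the lowest SIUP library at 172 RPKM, and SCP1 lay well below SCP2 and SCP3. Solyc09g064720, annotated with carboxymethylenebutenolidase activity, had 103, 118 and 162 RPKM in SIP, against 178, 292 and 228 RPKM in SIUP, and 73.8, 143 and 165 RPKM in SCP, against 276, 248 and 289.9 RPKM in SCUP. SIP3 came close to SIUP1 for this gene.

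Of the other high members, Solyc02g077880 had 75.5, 215 and 76.1 RPKM in SIP, against 506, 281 and 457 RPKM in SIUP, and 35.8, 285 and 254 RPKM in SCP, against 576, 481 and 577 RPKM in SCUP. The SCP2 and SCP3 values of this gene lay far above SCP1. Solyc12g008560 had 138, 272 and 177 RPKM in SIP, against 399, 586 and 523 RPKM in SIUP, and 137, 279.5 and 349 RPKM in SCP, against 434, 609 and 426 RPKM in SCUP. Solyc09g031750, Solyc09g090350 and Solyc02g084240 had D of -1.05 to -0.85 in SI and -1.46 to -1.02 in SC. These 8 genes took 19.1% of the members' reads in SIP, 19.0% in SIUP, 24.3% in SCP and 24.4% in SCUP.

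Terms were found for 30 members. They came from lists of genes that the study had marked as changed, and those lists are held here only in part, so the 116 members without a term are not shown to lack a function. Each annotated member was placed by hand in a single group, although the terms of some fit several, such as chloroplast terms in the carbon and lipid groups. The carbon metabolism group held 5 members, with D of -1.16 to -0.93 in SI and -1.42 to -1 in SC. Besides the phosphorylase they were Solyc07g062530, a phosphoenolpyruvate carboxylase by its terms, an enzyme that fixes bicarbonate onto phosphoenolpyruvate. It had 7.73, 7.28 and 5.88 RPKM in SIP, against 15.6, 13.6 and 13.2 RPKM in SIUP, and 9.59, 21.7 and 22.9 RPKM in SCP, against 48.7, 53.9 and 28.6 RPKM in SCUP. Solyc03g071590, annotated as an NADP-dependent malate dehydrogenase of the chloroplast stroma, had 23.4, 37.4 and 29.4 RPKM in SIP, against 50.4, 82.4 and 65.2 RPKM in SIUP, and 8.86, 17.6 and 19.2 RPKM in SCP, against 48.2, 46.6 and 29.9 RPKM in SCUP. Solyc01g098560 carried terms for sugar transport and Solyc04g079030 for the transfer of hexosyl groups. In 4 of these 5 genes SCP1 was well below the other SCP libraries.

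The chloroplast and light group held another 5 members, with D of -1.39 to -0.95 in SI and -1.08 to -0.98 in SC. Solyc02g071260 carried terms for a red and far-red photoreceptor, as phytochromes have. It had 8.21, 10.02 and 9.31 RPKM in SIP, against 16.04, 21.5 and 19.02 RPKM in SIUP, and 2.07, 2.16 and 2.51 RPKM in SCP, against 6.26, 4.097 and 5.39 RPKM in SCUP. Its SIP libraries were above its SCUP libraries. Solyc10g078920, annotated with disulfide oxidoreductase activity in the chloroplast stroma, had 7.88, 8.65 and 7.19 RPKM in SIP, against 16.8, 24.6 and 23.003 RPKM in SIUP, and 5.83, 13.2 and 13.7 RPKM in SCP, against 21.2, 22.4 and 24.6 RPKM in SCUP. Both species kept P and UP well apart. Solyc04g076740, with a term for protein import into the stroma, had 3.85, 4.41 and 5.69 RPKM in SIP, against 7.07, 10.4 and 10.7 RPKM in SIUP, and 0.719, 3.45 and 3.23 RPKM in SCP, against 5.42, 6.55 and 4.75 RPKM in SCUP. SCP1 was far below the other SCP libraries. Solyc09g007850 carried a term for RNA binding in the chloroplast and Solyc06g068500 for the response to light.

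Solyc07g056580, which the study names as the ethylene receptor gene LeETR2, was the only member with a hormone perception term. Ethylene receptors hold the pathway off until they bind the hormone. LeETR2 had 1.46, 2.31 and 2.41 RPKM in SIP, against 3.49, 7.08 and 5.81 RPKM in SIUP, and 2.74, 6.35 and 5.85 RPKM in SCP, against 11.2, 12.6 and 7.72 RPKM in SCUP. Its P and UP libraries did not overlap in either species, as the rule required, and D was -1.22 in SI and -1 in SC. The limma change of LeETR2 did not pass in either species, with an adjusted p of 0.0710 in SI and 0.105 in SC. The study's cutoffs for genes were a p-value under 0.05, with no adjustment named, and a fold change. By them it reports the receptor genes LeETR6 and tETR as raised in SI, and LeETR2, lowered, as the only receptor found in SC. The adjusted p used here is a different threshold, so a gene that did not pass it is not shown to be unchanged. In the values used here, Solyc06g053710 (LeETR6) rose in both species. It had 3705, 3373 and 3542 RPKM in SIP, against 1215, 1315 and 1461 RPKM in SIUP, and 4389, 2435 and 3342 RPKM in SCP, against 968, 1208 and 1186 RPKM in SCUP, with a limma log2 change of 1.41 ± 0.13 in SI (SE, adjusted p = 0.00570) and 1.56 ± 0.29 in SC (SE, adjusted p = 0.0270). Solyc09g089610 (tETR) had 11.3, 11.6 and 7.24 RPKM in SIP, against 3.03, 6.16 and 5.78 RPKM in SIUP, and 12.8, 39.98 and 26.8 RPKM in SCP, against 7.002, 9.299 and 6.39 RPKM in SCUP. Every P library of tETR lay above every UP library of the same species. Its limma change did not pass in either species, with an adjusted p of 0.110 in SI and 0.0596 in SC, though without SCP1 the adjusted p in SC was 0.0171. The SC call of LeETR6 was lost without SCP2 (adjusted p = 0.0515), SCP3 (0.0811), SCUP1 (0.109) or SCUP3 (0.119), while its SI call held without any 1 library.

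Lipid and specialised metabolism included, besides the desaturase, a terpene synthase by its terms, Solyc07g066670, and Solyc10g049210, annotated with serine carboxypeptidase and acyl transfer activity. The terpene synthase gene had 1.54, 1.54 and 1.24 RPKM in SIP, against 2.28, 3.56 and 3.05 RPKM in SIUP, and 3.27, 2.93 and 3.78 RPKM in SCP, against 6.05, 7.25 and 6.22 RPKM in SCUP. In this gene the highest SIP library was at 1.54 RPKM and the lowest SIUP library at 2.28 RPKM. A further 3 members with oxidoreductase terms, placed in none of the groups above, had D of -1.01 to -1 in SI and -1.68 to -0.83 in SC. The peroxidase gene Solyc02g080530 had 6.18, 5.23 and 5.38 RPKM in SIP, against 11.8, 12.2 and 11.1 RPKM in SIUP, and 1.04, 1.06 and 2.36 RPKM in SCP, against 7.098, 3.83 and 5.43 RPKM in SCUP. Peroxidases use hydrogen peroxide to oxidise other compounds.

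RNA and DNA processes were represented by Solyc01g008960 (terms for siRNA production and DNA methylation), Solyc03g093880 (processing of a splicing RNA) and Solyc10g018530 (binding of mismatched DNA), with D of -1.09 to -0.82 in SI and -1.26 to -0.96 in SC. Protein kinase terms marked Solyc09g007510, Solyc02g081070 and Solyc02g077630, and a calmodulin binding term marked Solyc01g068460. These 4 had D of -1.04 to -0.86 in SI and -1.26 to -0.93 in SC. The remaining 6 annotated members had only broad terms apart from Solyc10g081310, whose terms name a sulfur-metabolism enzyme of the peroxisome, and Solyc09g064720 above.

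**Figure D4:**
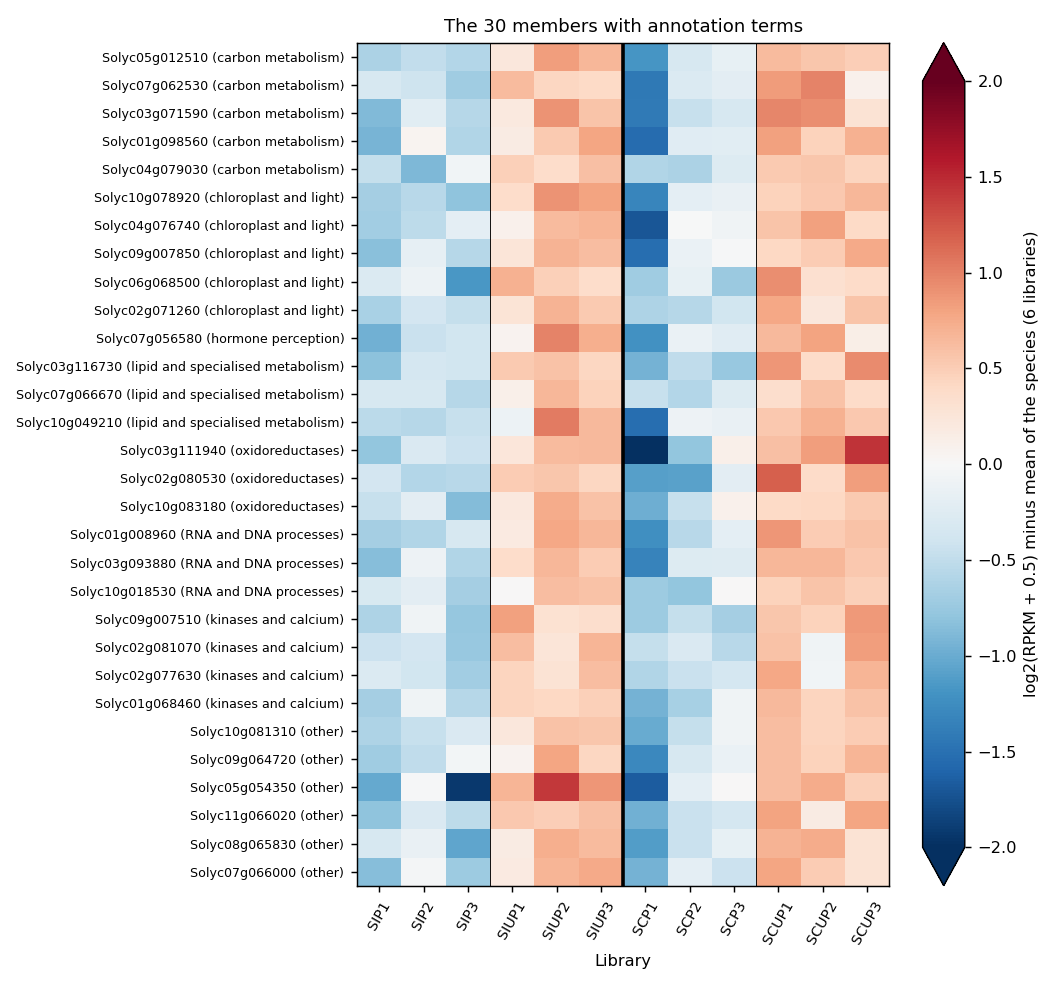
Log2(RPKM + 0.5) of the 30 annotated members in each library, minus the mean of the 6 libraries of the same species (colour scale cut at -2 and 2). Members are rows, with their group of terms in brackets, and libraries are columns. The SIP and SCP columns are mostly blue and the SIUP and SCUP columns mostly red, with SCP1 the deepest blue for most members.

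The size of D differed between species for some members. It was lower in SI for 54 and lower in SC for 92, and for 94 members both D lay within 0.3 of each other. Solyc02g069250 had the largest difference towards SC, with 18.8, 20.9 and 11.6 RPKM in SIP, against 44.5, 22.5 and 32.6 RPKM in SIUP, and 14.2, 15.6 and 37.9 RPKM in SCP, against 124, 67.7 and 105 RPKM in SCUP. SIP2 nearly reached SIUP2, whereas SCP and SCUP were wide apart, and D was -0.94 in SI and -2.11 in SC. Solyc11g007690 had 80.3, 90.1 and 112 RPKM in SIP, against 146, 190.2 and 179 RPKM in SIUP, and 31.9, 94.3 and 92.1 RPKM in SCP, against 234, 235 and 296 RPKM in SCUP. Its SCP libraries spread widely, with SCP1 lowest, and D was -0.87 in SI and -1.80 in SC. Solyc04g005070, with D of -0.83 in SI and -1.75 in SC, was a low gene. Towards SI the largest were Solyc06g006080, given above, Solyc03g114150 and Solyc05g054350. Solyc03g114150 had 4.71, 12.4 and 6.46 RPKM in SIP, against 15.4, 45.98 and 35.9 RPKM in SIUP, and 1.25, 6.53 and 7.996 RPKM in SCP, against 11.7, 10.02 and 10.7 RPKM in SCUP. Solyc05g054350, annotated only as a hydrolase, had 9.75, 20.1 and 5.003 RPKM in SIP, against 33.2, 55.1 and 38.1 RPKM in SIUP, and 9.67, 27.4 and 31.9 RPKM in SCP, against 48.9, 53.2 and 44.2 RPKM in SCUP. In it SIP2 lay far above SIP1 and SIP3. These differences are made of the values that chose the members and were not tested.

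How the unpollinated level compared between species was not used by the rule, apart from the floor. In a limma fit over all 12 libraries, 40 members (27.4%) were higher in SIUP than in SCUP, 19 (13.01%) were lower and 87 did not pass. The background was 27.9% higher and 23.8% lower among 20277 genes tested, and 28.3% higher and 18.6% lower among the floor genes. The median log2 difference was 0.34 over the members and 0.17 over the floor genes. Upper-quartile scaling moved the median over all genes tested to 0.01, against 0.12 without it. With this scaling 37 members were higher and 21 lower, against 4874 higher and 5393 lower of 20292 genes tested. SCP1 is in neither group but shares in the estimate of the spread. Without it 59 members were higher and 24 lower, against 6190 and 5100 of 20116 genes tested. A fit of SIUP and SCUP alone had 55 members higher and 24 lower, against 5405 and 4596 of 19215 genes. How the members compare with all genes here thus depended on the fit.

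Solyc06g069280 had the largest called difference, at 389.8 ± 30.7 RPKM in SIUP and 40.8 ± 2.36 RPKM in SCUP (SD, n = 3 each). The log2 difference was 3.24 ± 0.50 (SE, limma, adjusted p = 0.000309). Solyc01g090180 was next, at 26.4 ± 4.23 RPKM in SIUP and 3.08 ± 1.09 RPKM in SCUP (SD, n = 3 each), with a log2 difference of 2.95 ± 0.27 (SE, limma, adjusted p = 7.6e-06). The kinase gene Solyc02g081070 was at 26.4 ± 3.96 RPKM in SIUP and 4.66 ± 1.55 RPKM in SCUP (SD, n = 3 each), with a log2 difference of 2.42 ± 0.23 (SE, limma, adjusted p = 9.02e-06). In all 3 genes every SIUP library exceeded every SCUP library.

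Solyc11g007710 was at 14.8 ± 5.95 RPKM in SIUP and 2.499 ± 0.721 RPKM in SCUP (SD, n = 3 each), with a log2 difference of 2.31 ± 0.31 (SE, limma, adjusted p = 0.000109). In the other direction, Solyc06g076570 was at 30.03 ± 10.2 RPKM in SIUP and 145 ± 58.4 RPKM in SCUP (SD, n = 3 each), with a log2 difference of -2.24 ± 0.78 (SE, limma, adjusted p = 0.0313). The photoreceptor gene Solyc02g071260 was higher in SI, by 1.76 ± 0.18 (SE, limma, adjusted p = 1.67e-05). LeETR2 was lower in SI, by a log2 difference of -0.91 ± 0.34 (SE, limma, adjusted p = 0.0408). These last calls, of Solyc06g076570 and LeETR2, were lost with some single libraries left out. For Solyc06g076570 the adjusted p was 0.105 without SCUP2, 0.0575 without SCUP3, 0.0914 without SIUP1 and 0.0692 without SIUP3. For LeETR2 it was 0.0970 without SCUP1, 0.129 without SCUP2, 0.0514 without SIP2, 0.150 without SIUP1 and 0.0692 without SIUP3. The Solyc06g069280, Solyc01g090180, Solyc02g081070, Solyc11g007710 and Solyc02g071260 calls held with any 1 of the 12 libraries left out.

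**Figure D5:**
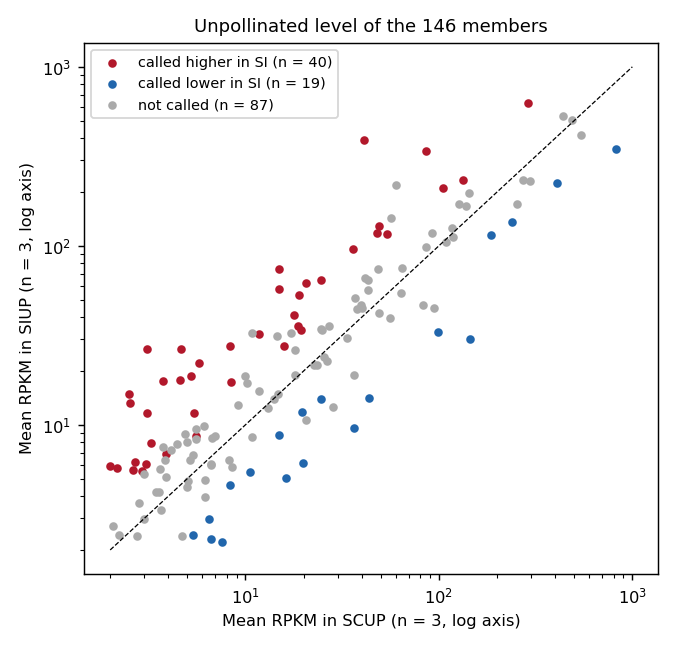
Mean RPKM of the 146 members in SIUP (vertical) against SCUP (horizontal), both on log axes, n = 3 libraries each. The dashed line marks equal levels. Red points (40) were called higher in SI, blue points (19) lower and grey points (87) did not pass.

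After selfing, 55 members (37.7%) were higher in SIP than in SCP and 13 (8.90%) were lower, against 30.3% higher and 25.1% lower of all genes tested and 31.3% higher and 19.6% lower of floor genes. The rule had used these libraries, and this difference is partly made of the D values that chose the members. Nothing is therefore read from these shares. The median log2 difference was 0.59 over the members and 0.17 over floor genes. SCP1 weighed on these counts: without it 38 members were higher and 27 lower, against 5776 higher and 5168 lower of 20116 genes tested. Without SCP2, and likewise without SIP1, 8 members were lower, against 4228 of 20088 and 4290 of 20183 genes tested. Of the members, 39 were higher in SI both with and without pollination, 13 were lower in both, and 0 were called in opposite directions. How many of all genes did so was not counted.

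The exon length of the members, also worked out from the RPKM steps, had a median of 1308.5 bp (quartiles 807.5 and 1843), against 1243.5 bp (753 and 1846.2) for floor genes. Depth was limiting for some: 23 members had fewer than 10 reads in at least 1 library, and 44 had 100 or more in every library.

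By the chromosome number in their IDs, members lay on all 12 chromosomes, with 1 more among unplaced genes. Chromosome 7 held 17, or 1.49% of its floor genes, and chromosome 4 held 8, or 0.625%. No members were directly next to each other in ID order, while 24 of them formed 13 pairs at most 10 IDs apart. Such pairs were not counted among other genes, so they are not shown to be particular to the members. Of the paired members, Solyc12g008410, Solyc12g008510, Solyc12g008560 and Solyc12g008580 formed a run, of which only Solyc12g008560 was high. Solyc12g008410 had 3.19, 4.001 and 4.71 RPKM in SIP, against 5.82, 9.55 and 8.17 RPKM in SIUP, and 0.885, 2.08 and 3.35 RPKM in SCP, against 4.57, 4.94 and 3.85 RPKM in SCUP. Solyc12g008510 had 0.786, 1.0003 and 0.896 RPKM in SIP, against 1.77, 3.63 and 1.899 RPKM in SIUP, and 1.37, 3.35 and 2.904 RPKM in SCP, against 3.59, 7.17 and 5.33 RPKM in SCUP. The 4 genes had D of -1.36 to -0.90 in SI and -1.32 to -0.93 in SC. Solyc11g007690 and Solyc11g007710 flanked Solyc11g007700, which missed the threshold narrowly.

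Just inside the threshold were Solyc08g082370, with D of -0.801 in SI and -0.955 in SC, Solyc05g015510, with -0.804 in SI and -1.292 in SC, and Solyc03g093800, with -1.172 in SI and -0.805 in SC. Just outside it were Solyc07g017670, with -0.799 in SI and -0.907 in SC, Solyc11g069770, with -0.796 in SI and -1.188 in SC, and Solyc11g007700, with -0.796 in SI and -1.035 in SC. Solyc11g007700 had 7.32, 7.48 and 7.18 RPKM in SIP, against 12.2, 13.6 and 13.4 RPKM in SIUP, and 2.13, 3.39 and 3.52 RPKM in SCP, against 9.28, 5.07 and 5.72 RPKM in SCUP. Neither species had overlapping groups, so only D in SI kept it out.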

How the data were processed

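RNA of styles with stigmas was sequenced in 12 libraries, and the authors trimmed reads with Trimmomatic 0.32 and mapped them with TopHat2 (submitters' processing notes), counted them per gene with HTSeq (the study's methods), and deposited RPKM values. For the genome build, the sources used here give no name, and no coordinates or sequences are printed. The deposited table lists 34725 genes, of which 7 with error codes, and 1 line of no gene, were left out. Sheets of read quality and of the authors' own fold changes and p-values were not used. Reads on genes and exon lengths were worked out from the steps in the RPKM values (26562 genes, lengths whole within 0.01 bp).

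Groups came from the sample titles. limma 3.58.1 in R 4.3.3 was fitted with an intensity trend to log2(RPKM + 0.5), two-sided with Benjamini-Hochberg adjustment over all genes tested, for genes that reached 1 RPKM in 3 or more libraries, per species for P over UP and over all 12 libraries for SI over SC. Fold changes on this scale understate changes of low genes. The fits were tested on simulated reads, with no outlying library and with changes only in genes of many reads. That test therefore does not cover a library such as SCP1 or members with few reads, and its outcome is not given here. Figures were drawn with Python 3.11.15 and matplotlib 3.10.9.

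The members and all lists were chosen with earlier results of these data known. Named members were the 12 with the lowest mean D, the 8 highest in unpollinated styles, the 3 just inside and 3 just outside the threshold, the member that the study names by ID, the 5 with the largest called SIUP over SCUP difference, the 3 with the largest D difference in each direction, and, outside this rule and chosen after their values were seen, the other annotated members and those in the ID run. Lists of transcription regulators, hormone, cell wall, style and photosynthesis genes could not be applied, since no description matched the gene IDs. Alternatives were other scalings, pseudocounts, filters, thresholds and tests, a replicate block, and leaving out each library.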

Additional observations from a re-analysis of the deposited data

How the results depend on the processing

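Of the values given for named genes under the alternatives, 2137 kept their direction and their side of the threshold, or moved by less than the spread between replicates, while 63 no longer passed the test, 34 newly passed it and 5 moved further. No result changed sign by more than that spread. Median D of the members was -1.11 to -0.90 in SI and -1.27 to -0.91 in SC with single libraries left out. A D threshold of -1 left 47 members, and leaving out single libraries gave 103 to 289 genes.

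The number of members that passed limma as lower in SIP was 55, and it was 36 without the filter on low values. It was 27 in a fit over all 12 libraries, and 1 to 104 with single libraries left out. Over all genes tested these counts were 211 of 18334, 126 of 25605, 113 of 20277, and 2 to 1083 of 18013 to 18141. In SC the number of members was 46, and 22 without the filter and 30 with a filter of 5 RPKM. It was 107 in the fit over all 12 libraries and 2 to 36 with single libraries left out. Over all genes tested these counts were 422 of 18913, 225 of 26472, 352 of 14424, 2030 of 20277, and 12 to 525 of 18557 to 18650. An unequal-variance test of each gene called 0 members in SI and 0 in SC at an adjusted p under 0.05. At an unadjusted p under 0.05 it had 86 and 88, against 2957 of 18334 and 3216 of 18913 genes. The same test called 9 members higher and 2 lower in SIUP over SCUP, against 1338 and 696 of 20277 genes. In SIP over SCP it called 13 higher and 1 lower, against 1316 and 933 of 20277 genes. With single libraries left out, SIUP over SCUP gave 32 to 59 members higher and 13 to 24 lower, and SIP over SCP 38 to 62 higher and 8 to 27 lower. Over the 20077 to 20210 genes tested, SIUP over SCUP gave 4405 to 6190 higher and 4205 to 5100 lower. SIP over SCP gave 5035 to 6392 higher and 4228 to 5168 lower. The causes were not tested.

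With the replicate number as a block, 17 members passed as lower in SI and 26 in SC, against 25 of 18334 and 248 of 18913 genes. In SIUP over SCUP 45 members were higher and 20 lower, against 6058 and 5026 of 20277 genes. In SIP over SCP 63 were higher and 14 lower, against 6484 and 5234 of 20277 genes. Deviations of same-numbered P and UP libraries from their group means correlated across genes at 0.165, -0.211 and 0.059 in SI. In SC they correlated at 0.364, 0.199 and -0.068. SIP1, SCP1 and SCP2 correlated best with the UP library of their own number, and SIP2, SIP3 and SCP3 did not. With 3 libraries per group, whose deviations are tied to each other, these values cannot decide whether same-numbered libraries shared a batch.

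Depth limits the low members: 23 had fewer than 10 reads in some library.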

Other observations

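Many genes missed the rule by a single condition. Of the genes that met all others, 425 missed it by D in SI, 42 by D in SC, 42 by overlapping SIP and SIUP libraries, 16 by overlapping SCP and SCUP libraries, 3 by the floor in SIUP and 5 by the floor in SCUP. The D threshold was met in both species by 211 of the genes at the floor.

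Within groups, the median ratio of a member's highest over its lowest library was 1.48 in SIP, 1.53 in SIUP, 2.27 in SCP and 1.42 in SCUP. SCP1 lay below 0.5 of the lower of the other SCP libraries for 62 members. The lowest UP library exceeded 2 times the highest P library for 7 members in SI and 15 in SC. None of these ratios and counts was taken over all genes, so they are not shown to be particular to the members.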
